A study of Danio rerio with 4 samples.

Results

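The 10 genes described here act in the route from cholesterol to 11-ketotestosterone, the main androgen of fish. They were chosen by Ensembl identifier: star, a pair of genes both named cyp11a1, hsd3b1, cyp17a1, cyp17a2, cyp11c1, hsd11b2, fdx1b and fdxr. They are 10 of the 49610 genes and assembled loci measured, and all 10 were among the 23405 features that averaged at least 1 FPKM (fragment numbers normalized for transcript length and sequencing depth) over the libraries. RNA came from testes of 5-month-old wild-type zebrafish of strain AB, and 4 libraries were made: dibutyl phthalate (DBP), diisobutyl phthalate (DiBP), both together (DBP+DiBP) and control, over a study of 30 days. The agents are plasticizers and isomers, DBP with linear and DiBP with branched butyl chains. No dose, vehicle or number of fish per library was stated. Each group was 1 library, so no value has a replicate check and no test was run, and every ratio describes these libraries. All 3 comparisons with control rest on the same control library.

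Leydig cells lie between the seminiferous tubules and make androgens from cholesterol in response to luteinizing hormone. The StAR protein brings cholesterol to the inner mitochondrial membrane, where Cyp11a1 cleaves its side chain to give pregnenolone. Hsd3b and Cyp17a enzymes in the endoplasmic reticulum turn pregnenolone into androgens, Cyp11c1 in the mitochondrion adds a hydroxyl group at carbon 11, and Hsd11b2 oxidizes that group to the ketone of 11-ketotestosterone. The mitochondrial P450 enzymes Cyp11a1 and Cyp11c1 need electrons that ferredoxin reductase takes from NADPH and ferredoxin hands on. Cyp11c1 and Hsd11b2 also serve cortisol, which the first makes and the second inactivates.

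The libraries had similar depths, between 1.051 and 1.103 times that of control by the spacing of low values, and FPKM totals between 547485 and 605447. The DBP+DiBP library stood apart. Its 5 gut markers summed to 3067 FPKM, against 15.7 in DBP, 5.59 in DiBP and 13.8 in control, and its 5 leukocyte markers to 280 FPKM, against 49.8 in control. Its 6 liver markers summed to 135 FPKM, against 18.7 in DBP, 10.9 in DiBP and 38.9 in control. Its 3 pancreas markers summed to 171 FPKM, against 48.4 in DBP, 51.1 in DiBP and 71.3 in control. By these sums control lay above the DBP and DiBP libraries for both lists. In the liver list tfa and fabp10a, at 16.8 and 15.7 FPKM in control, carried most of it. TTR was lowest in control, at 1.81 FPKM against 3.92 in DBP and 4.79 in DiBP. The levels of fga and FGB in control lay below those in DBP. The 7 germ cell markers summed to 670 FPKM in DBP+DiBP, against 1423 in control. The labels give the fish as male and the tissue as testis, whereas the series' design text speaks of females. Germ cell genes were plentiful in every library, with DDX4 at 251 FPKM in DBP, 262 in DiBP, 167 in DBP+DiBP and 352 in control. Of the Sertoli cell genes, DMRT1 lay between 54.4 and 112 FPKM and amh between 31.3 and 79.1. The ovary markers bmp15, buc and figla lay at 0.843 to 1.38, 2.67 to 4.13 and 1.77 to 3.90 FPKM. Of 7 ovary markers the oocyte-related gene org had 130 to 294 FPKM and ZAR1, an oocyte factor, 2.11 to 6.07, while the aromatase gene CYP19A1 stayed between 0.309 and 0.603 FPKM. Of 7 non-enzyme Leydig cell markers 2 averaged at least 1 FPKM, and they moved differently. The hormone insl3 had 2455 FPKM in DBP, 1044 in DiBP, 293 in DBP+DiBP and 2072 in control. The inhibin subunit gene inha, which Sertoli cells also express, had 6.77 FPKM in DBP, 6.42 in DiBP, 9.21 in DBP+DiBP and 4.33 in control. The luteinizing hormone receptor gene lhcgr lay between 0.0666 and 0.203 FPKM.

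The first step was the most abundant. The cholesterol carrier star (ENSDARG00000006137) stood at 159 FPKM in DBP, 64.6 in DiBP, 71.5 in DBP+DiBP and 132 FPKM in control. DBP and control lay together at the top, and DiBP and DBP+DiBP together at the bottom. On the log2(FPKM + 1) scale, on which all ratios are given and which understates the change of low genes, star differed from control by 0.26 in DBP and by -1.02 in DiBP, and in DBP+DiBP by -0.87. A gene is called higher or lower here at a difference of at least 2-fold, a log2 ratio of 1, so star was called in DiBP. In RNA of whole tissue, fewer expressing cells, less RNA per expressing cell and more RNA from other cells cannot be told apart. This holds for every gene below.

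Both genes for the side chain cleavage enzyme followed the same order as star. The cyp11a1 copy ENSDARG00000002347 had 10.2 FPKM in DBP, 2.85 in DiBP, 3.12 in DBP+DiBP and 5.37 in control. The copy ENSDARG00000092696 had 9.41 FPKM in DBP, 3.46 in DiBP, 3.80 in DBP+DiBP and 5.35 in control. DBP was the highest library for both copies, and DiBP the lowest. Their ratios to control were 0.82 and 0.71 in DBP, -0.73 and -0.51 in DiBP, and -0.63 and -0.40 in DBP+DiBP, all under 2-fold. The RefSeq gene table (GRCz12tu) lists cyp11a1.1 and cyp11a1.2 on 1 chromosome with 1 gene between them, but does not link them to the identifiers of the files. Reads of near-identical copies can be split between them, so the separate values are uncertain. The first copy was 1.09 times the second in DBP, 0.823 in DiBP, 0.820 in DBP+DiBP and 1.004 in control.

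The enzymes of the endoplasmic reticulum did not share 1 order of the libraries. For hsd3b1 (ENSDARG00000069926), the dehydrogenase and isomerase that makes progesterone from pregnenolone, there were 11.2 FPKM in DBP, 5.63 in DiBP, 7.69 in DBP+DiBP and 4.81 in control. Control was its lowest library, and the ratio of 1.07 in DBP passed 2-fold, beside 0.19 in DiBP and 0.58 in DBP+DiBP. For cyp17a1 (ENSDARG00000033566), the hydroxylase and lyase that leads to androgens, there were 15.4 FPKM in DBP, 9.74 in DiBP, 4.03 in DBP+DiBP and 13.1 in control. Its low value in DBP+DiBP gave a ratio of -1.49, past 2-fold, beside 0.22 in DBP and -0.39 in DiBP. The fish paralog cyp17a2 (ENSDARG00000053966), a hydroxylase known for lacking most of the lyase activity, had 7.39 FPKM in DBP, 4.10 in DiBP, 4.29 in DBP+DiBP and 4.50 in control. DiBP, DBP+DiBP and control lay close together, DBP stood above them at a ratio of 0.61, and the ratio of -0.06 in DBP+DiBP turned positive when the libraries were scaled by median ratios. The level of cyp17a1 was 2.08 times that of cyp17a2 in DBP, 2.38 in DiBP, 0.939 in DBP+DiBP and 2.91 in control, so that cyp17a2 was the more abundant of the pair in DBP+DiBP.

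The last steps, which make the fish androgen, differed from each other. The hydroxylase cyp11c1 (ENSDARG00000042014) had 105 FPKM in DBP, 37.3 in DiBP, 46.4 in DBP+DiBP and 53.3 in control. DBP stood above the other libraries, at a ratio to control of 0.97, just under 2-fold, with -0.50 in DiBP and -0.20 in DBP+DiBP. The dehydrogenase hsd11b2 (ENSDARG00000001975) had 16.3 FPKM in DBP, 16.97 in DiBP, 9.95 in DBP+DiBP and 6.18 in control. Both single exposures stood 2.63-fold and 2.75-fold above control, at ratios of 1.27 in DBP and 1.32 in DiBP, and DBP+DiBP lay between them and control at 0.61. The level of hsd11b2 was 0.155 times that of cyp11c1 in DBP, 0.455 in DiBP, 0.215 in DBP+DiBP and 0.116 in control.

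**Figure D1:**
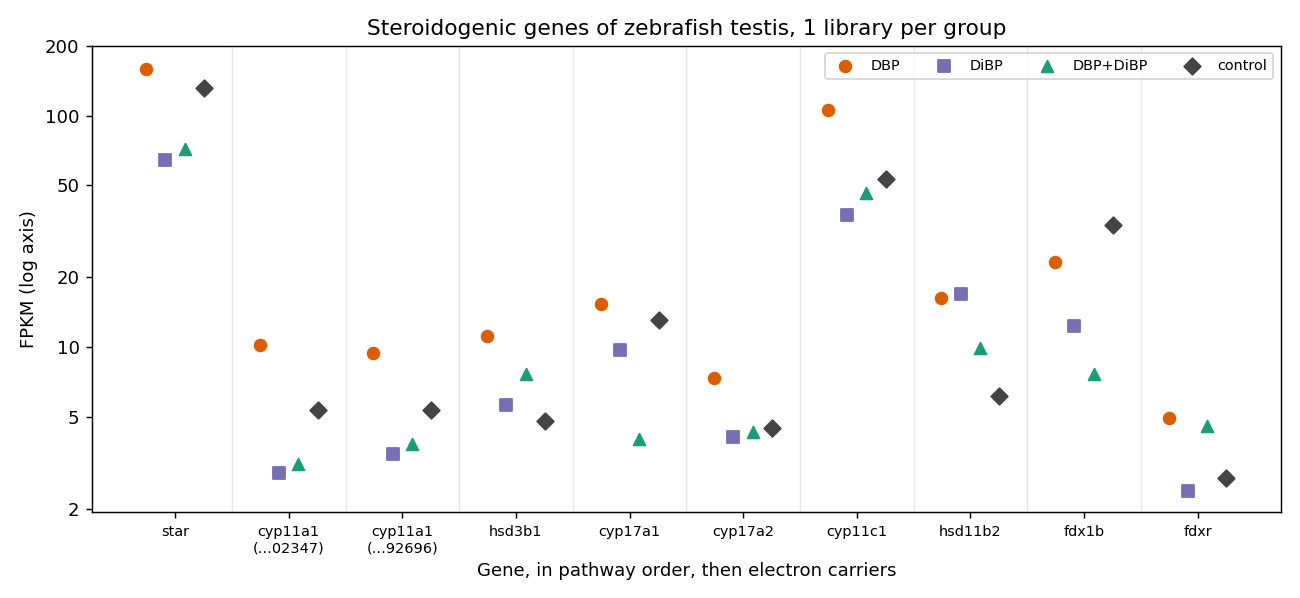
FPKM of the 10 steroidogenic genes (log axis) in each library, 1 point per library, with genes in pathway order followed by the electron carriers. DBP is the highest point for 8 of 10 genes, control is the highest for fdx1b, and DiBP is the highest for hsd11b2.

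The electron carriers moved apart. The ferredoxin fdx1b (ENSDARG00000038956), needed for steroid synthesis in zebrafish, had 23.3 FPKM in DBP, 12.3 in DiBP, 7.65 in DBP+DiBP and 33.6 in control. It was the only 1 of the 10 genes with its highest value in control, and its ratios were -0.51 in DBP and, past 2-fold, -1.38 in DiBP and -2.00 in DBP+DiBP. The reductase fdxr (ENSDARG00000089369) had 4.94 FPKM in DBP, 2.39 in DiBP, 4.57 in DBP+DiBP and 2.71 in control, with ratios of 0.68 in DBP and -0.13 in DiBP, beside 0.59 in DBP+DiBP, all under 2-fold. The level of fdx1b was 4.71 times that of fdxr in DBP, 5.16 in DiBP, 1.67 in DBP+DiBP and 12.4 in control. Another ferredoxin gene, fdx1, had 8.50 FPKM in DBP, 19.8 in DiBP, 20.8 in DBP+DiBP and 14.8 in control. A further one, FDX2, had 12.0 FPKM in DBP, 14.5 in DiBP, 15.7 in DBP+DiBP and 12.0 in control. The level of fdx1b was 2.74 times that of fdx1 in DBP, 0.623 in DiBP, 0.368 in DBP+DiBP and 2.27 in control. Of fdx1b and fdx1, the more abundant was thus fdx1b in DBP and control and fdx1 in DiBP and DBP+DiBP.

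In DBP against control 2 of the 10 genes were at least 2-fold higher, hsd3b1 and hsd11b2, and 0 were lower, where 6.68% of all features were higher and 4.5% lower. The median ratio of the 10 genes was 0.70, and that of all features 0.05. Of the 10 genes 9 lay above 0 and fdx1b below, where 54.3% of all features lay above 0. A ratio lower than that of cyp11c1 was found for 92.8% of features, and lower than that of hsd11b2 for 96.05%. After scaling by median ratios hsd3b1 had a ratio of 0.996 and was no longer past 2-fold. With a pseudocount of 5, hsd3b1 was at 0.72 and hsd11b2 at 0.93, and with library totals made equal cyp11c1 was at 1.02. In DBP the immediate early regulator genes CEBPB and NR4A1 were lower, as given with the regulators below.

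In DiBP against control 1 gene was at least 2-fold higher, hsd11b2, and 2 were lower, star and fdx1b, where 4.6% of all features were higher and 3.86% lower. The median of the 10 genes was -0.45, beside -0.01 over all features. Of the 10 genes 8 lay below 0 and 2 above, where 49.3% of all features lay above 0. A ratio lower than that of star was found for 3.69% of features, and lower than that of fdx1b for 1.64%. In the same comparison the Leydig cell marker insl3 had a ratio of -0.99, and inha one of 0.48. With library totals made equal, star had a ratio of -0.90 in DiBP and was no longer past 2-fold. With a pseudocount of 5 it was at -0.98, and hsd11b2 at 0.97.

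In DBP+DiBP against control 0 genes were at least 2-fold higher and 2 were lower, cyp17a1 and fdx1b, where 9.57% of all features were higher and 6.42% lower. The median of the 10 genes was -0.30, beside -0.11 over all features, both without further scaling. Scaling by median ratios brings the median over all features near 0 by design, here to 0.01, so that value is not a reference for the -0.30. The median of the 10 genes minus that of all features was -0.19. A ratio lower than that of cyp17a1 was found for 2.01% of features, and lower than that of fdx1b for 0.743%. The 7 germ cell markers had a median ratio of -1.13 in this comparison, the 5 gut markers one of 6.25, the 6 liver markers 1.98, the 3 pancreas markers 1.14 and the 5 leukocyte markers 3.38. The Leydig cell marker insl3 had a ratio of -2.82, and inha one of 0.94. Whether RNA of other tissues in this library had a part in the ratios of the 10 genes was not tested.

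**Figure D2:**
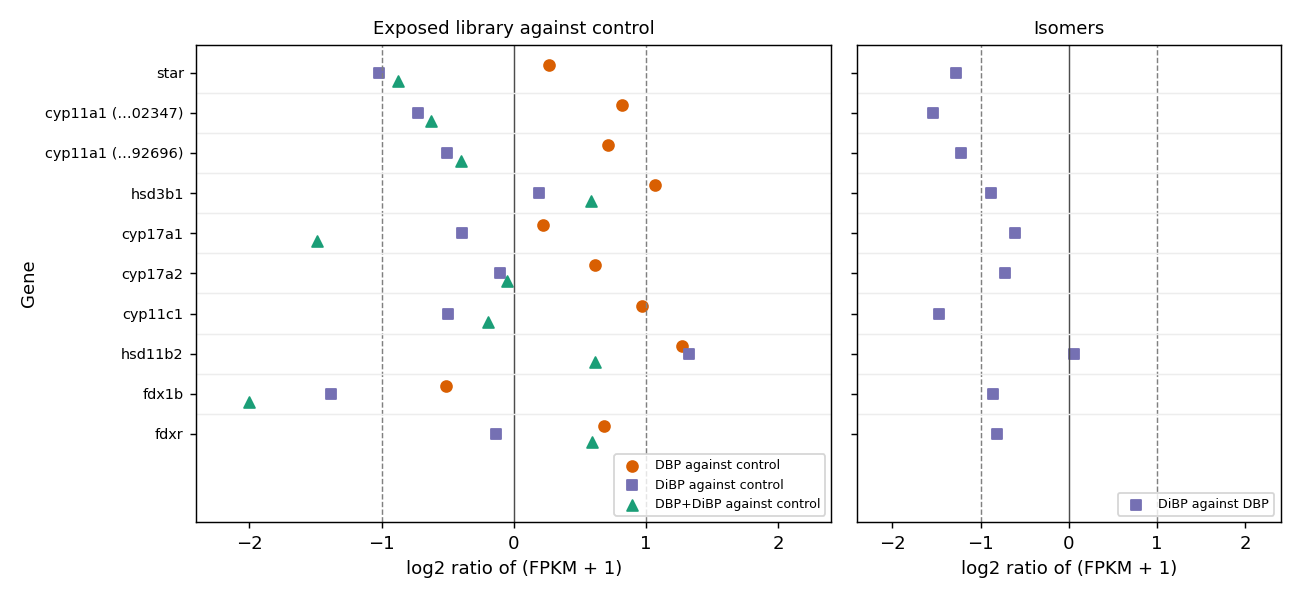
Log2 ratio of (FPKM + 1) for each gene, with the 3 exposed libraries against control on the left and DiBP against DBP on the right; dashed lines mark 2-fold, and each point compares 1 library with 1 library. The DBP points lie above 0 for 9 of 10 genes, and the DiBP against DBP points lie below 0 for 9 of 10. Of all features 54.3% lay above 0 in DBP against control and 45.3% in DiBP against DBP.

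DiBP was compared with DBP because the agents are isomers, although it is not known whether their doses matched. Of the 10 genes 4 were at least 2-fold lower in DiBP than in DBP and 0 higher, where 4.32% of all features were lower and 2.65% higher. The 4 were star at a difference of -1.28, the cyp11a1 copies at -1.54 and -1.22, and cyp11c1 at -1.47, and they encode the cholesterol carrier and the mitochondrial P450 enzymes. Their levels in DiBP were 0.407, 0.279, 0.368 and 0.355 times those in DBP. The other genes lay between -0.88 for hsd3b1 and 0.06 for hsd11b2, whose levels in DiBP and DBP were 16.97 and 16.3 FPKM. As plain ratios of FPKM, fdxr in DiBP was 0.483 times DBP, itself past 2-fold. By the same measure hsd3b1 was at 0.503, fdx1b at 0.529, cyp17a2 at 0.554 and cyp17a1 at 0.633. On the log2(FPKM + 1) scale the 4 called genes ended at -1.22, with hsd3b1 next at -0.88. As plain ratios star at 0.407 was followed by fdxr at 0.483, so which genes were called depended on the scale and the threshold. The median of the 10 genes was -0.87, beside -0.04 over all features. The insl3 difference was -1.23, and that of inha -0.07. With a pseudocount of 5 the cyp11a1 copies were at -0.96 and -0.77, under 2-fold, and with one of 0.1 fdxr was at -1.02.

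DBP+DiBP was also set against each single exposure. Against DBP, 6 of the 10 genes were at least 2-fold lower in DBP+DiBP and 0 higher, where 11.3% of all features were lower and 10.2% higher. These were star at -1.14, the cyp11a1 copies at -1.44 and -1.12, cyp17a1 at -1.70, cyp11c1 at -1.16 and fdx1b at -1.49. After scaling by median ratios 3 of them stayed past 2-fold, with star at -0.91, the second cyp11a1 copy at -0.92 and cyp11c1 at -0.93. Against DiBP, 1 gene was lower, cyp17a1 at -1.10, and 0 higher, where 8.19% of all features were lower and 10.5% higher. After scaling by median ratios cyp17a1 was at -0.95 against DiBP and no longer past 2-fold, as with a pseudocount of 5, at -0.71. With that pseudocount the cyp11a1 copies were at -0.91 and -0.71 against DBP. The other ratios to DiBP ran from -0.71 for hsd11b2 to 0.72 for fdxr, and those of star and the cyp11a1 copies were 0.14, 0.10 and 0.11.

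Ranked over the libraries, 8 of the 10 genes had their highest value in DBP, which held for 28.7% of all features. The exceptions were hsd11b2, highest in DiBP at 16.97 FPKM with DBP next at 16.3, and fdx1b, highest in control. The lowest value lay in DiBP for 6 genes, against 21.1% of all features. It lay in DBP+DiBP for cyp17a1 and fdx1b, against 40.4% of all features, and in control for hsd3b1 and hsd11b2, against 20.5%. With library totals made equal 5 genes were lowest in DiBP. Under that setting the ratios of DBP+DiBP to DiBP were 0.016 for star and 0.001 and 0.004 for the cyp11a1 copies, so these ranks rest on small gaps. After scaling by median ratios 7 genes were highest in DBP. With the DBP+DiBP library left out, 8 genes were highest in DBP and 8 lowest in DiBP, against 37.1% and 33.1% of features. The span from lowest to highest library was widest for fdx1b at 4.39-fold and narrowest for cyp17a2 at 1.80-fold.

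**Figure D3:**
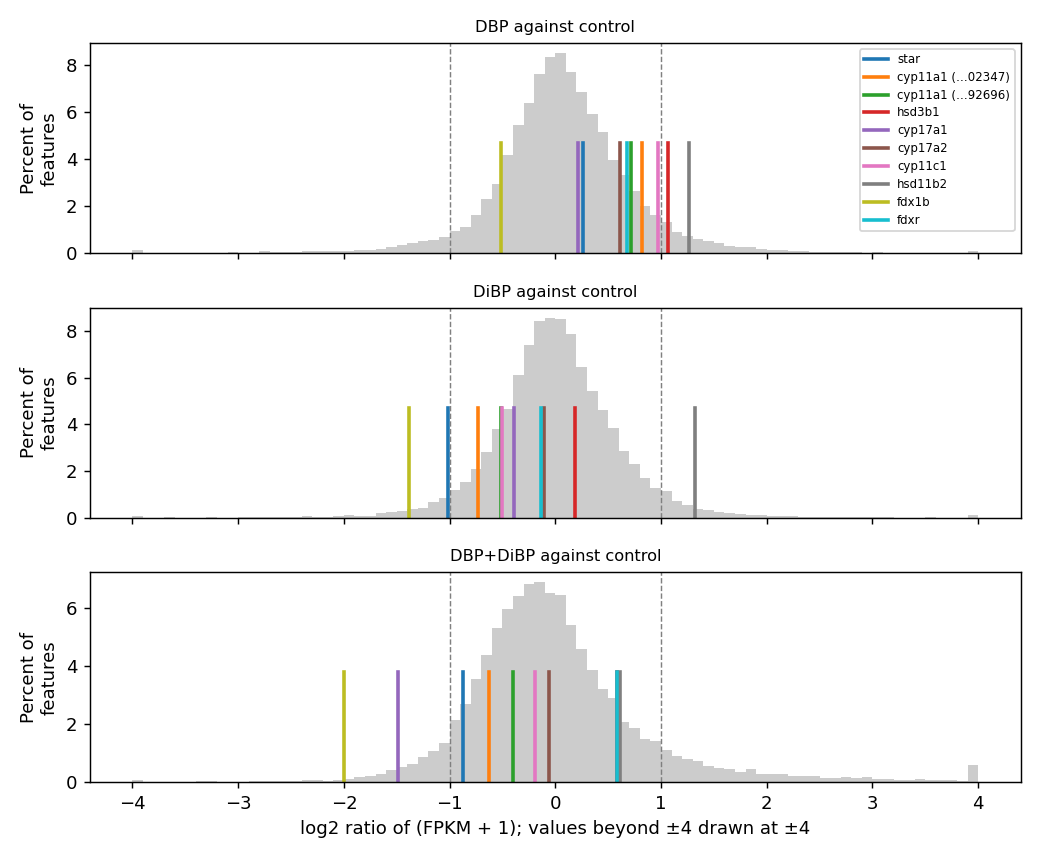
Distribution of log2 ratios to control over all 23405 features (grey bars, percent of features per bin) in the DBP, DiBP and DBP+DiBP libraries, with a coloured line at each of the 10 genes; line height has no meaning and dashed lines mark 2-fold. Most lines lie right of the centre in DBP and left of it in DiBP, and hsd3b1, fdxr and hsd11b2 overlap near 0.6 in DBP+DiBP.

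Shares of the 10 genes within a library do not depend on how libraries are scaled. The 10 genes summed to 362 FPKM in DBP, 159 in DiBP, 163 in DBP+DiBP and 261 in control. The largest share belonged to star in every library, with 43.8% in DBP, 40.6% in DiBP, 43.9% in DBP+DiBP and 50.6% in control. Next came cyp11c1 with 29.1% in DBP, 23.4% in DiBP, 28.5% in DBP+DiBP and 20.4% in control. Together these genes thus took most of the sum in each library. The share of fdx1b was 6.43% in DBP, 7.72% in DiBP, 4.70% in DBP+DiBP and 12.9% in control, and that of hsd11b2 was 4.50% in DBP, 10.6% in DiBP, 6.11% in DBP+DiBP and 2.37% in control. The share of cyp17a1 was 4.25% in DBP, 6.11% in DiBP, 2.47% in DBP+DiBP and 5.02% in control. In each exposed library, therefore, star and fdx1b had smaller shares than in control, and hsd3b1, the cyp11a1 copy ENSDARG00000092696, cyp17a2, cyp11c1, hsd11b2 and fdxr larger ones. Shares depend on each other, so a larger share can go with a lower level. In DiBP and DBP+DiBP that was so for cyp11c1, at 37.3 and 46.4 FPKM against 53.3 in control. It was also so there for this cyp11a1 copy and cyp17a2, and in DiBP for fdxr.

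**Figure D4:**
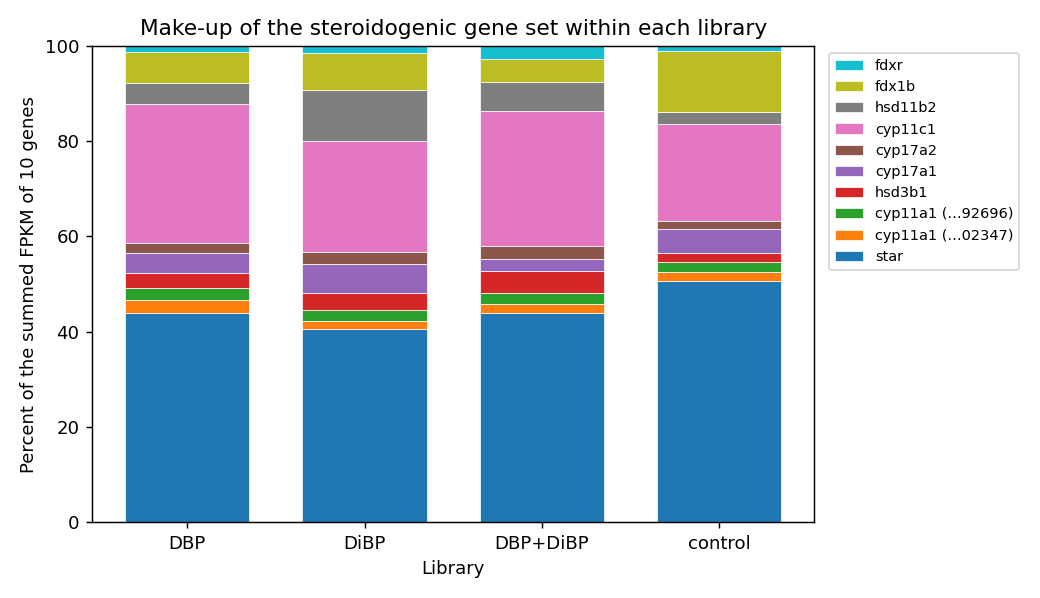
Each bar divides the summed FPKM of the 10 genes in 1 library into the percent held by each gene. The star segment is the largest in every bar, and the fdx1b segment is largest in control at 12.9%.

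Set against insl3, the hormone of the same cells, star was nearly level in 3 of the libraries. There were 64.6 FPKM of star per 1000 FPKM of insl3 in DBP, 61.9 in DiBP, 244 in DBP+DiBP and 63.7 in control. For cyp17a1 the values were 6.27 in DBP, 9.34 in DiBP, 13.7 in DBP+DiBP and 6.32 in control. For cyp11c1 they were 42.9 in DBP, 35.8 in DiBP, 158 in DBP+DiBP and 25.7 in control. For fdx1b they were 9.47 in DBP, 11.8 in DiBP, 26.1 in DBP+DiBP and 16.2 in control. In DBP+DiBP, where insl3 itself was lowest at 293 FPKM, all 4 of these genes were thus higher per insl3 than in the other libraries. This depended on the marker. The level of star was 23.4 times that of inha in DBP, 10.07 in DiBP, 7.76 in DBP+DiBP and 30.5 in control, and per inha all 4 genes were lowest in DBP+DiBP.

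The joint library was also compared with the sum of the single exposures' ratios, as a description in which the control library enters every term. The ratio in DBP+DiBP lay below that sum for 9 of the 10 genes, and for 56.4% of all features. The median departure was -0.63 for the 10 genes and -0.16 for all features. For hsd11b2 the joint ratio was 0.61 and the sum 2.59, a departure of -1.98, with 3.999% of features lower. For cyp17a1 the joint ratio was -1.49 and the sum -0.18, a departure of -1.31, with 12.4% of features lower. These were the only 2 genes past -1, which 19.96% of all features were. For star and fdx1b the departures were -0.12 and -0.11, and for fdxr 0.04. After scaling by median ratios those of star and fdx1b were 0.13 and 0.12, above 0. With library totals made equal that of fdxr was -0.096, so the count of 9 depended on the scaling.

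**Figure D5:**
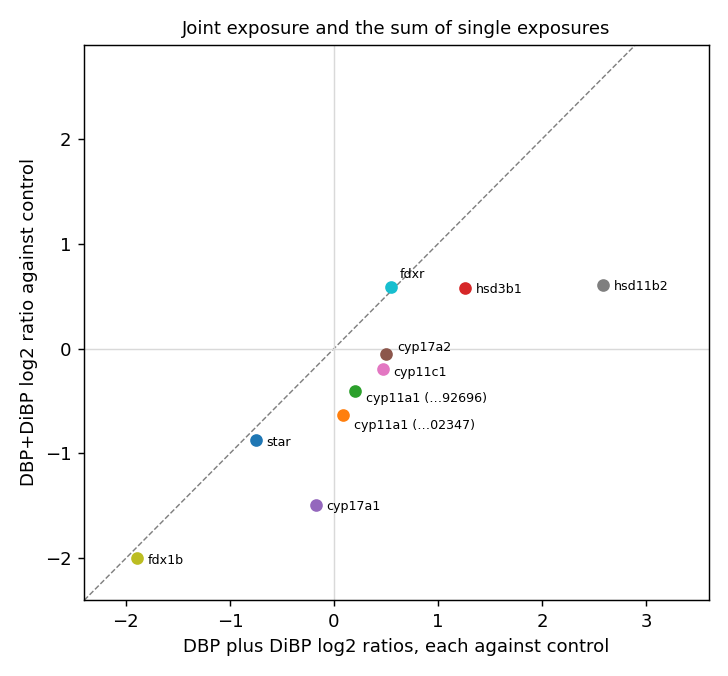
Log2 ratio of the DBP+DiBP library to control against the summed ratios of the single exposures, 1 point per gene; on the dashed line they are equal. The points for fdxr, star and fdx1b lie close to the line, and those for hsd11b2 and cyp17a1 lie farthest below it.

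The likeness of 2 genes was measured as the Euclidean distance between their log2(FPKM + 1) values over the 4 libraries, each centred on its mean. Among the 45 pairs of the 10 genes the closest were the second cyp11a1 copy with cyp11c1 at 0.23, the cyp11a1 copies with each other at 0.28 and the first copy with cyp11c1 at 0.31. The farthest was hsd11b2 with fdx1b at 2.17, and the median was 0.95. Among 7516 other genes with a settled symbol that averaged 5 FPKM or more, R3HDML, dnaaf3 and THBS3 lay nearest star, at 0.14, 0.16 and 0.22. The values of THBS3 were shared with other identifiers, so that name is uncertain. Nearest cyp17a1 were RBM27 at 0.11, gjb9b at 0.17 and SAMD13 at 0.17, and nearest cyp11c1 were ISOC2 at 0.20, NUDT6 at 0.21 and mctp2b at 0.26. Distances over 4 libraries from a pool of this size are short for many genes, and these serve as a description.

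Other genes of steroid synthesis and its control were taken from 4 lists, of whose 50 measured genes 30 averaged at least 1 FPKM. Of these 30, 0 were at least 2-fold higher and 2 lower in the DBP library when set against control, 0 and 0 in DiBP, and 8 and 1 in DBP+DiBP. The shares over the whole table were 6.68% higher and 4.5% lower in DBP, 4.6% and 3.86% in DiBP, and 9.57% and 6.42% in DBP+DiBP, and the lists are too short to set a count of 0 to 2 apart from them. Genes of cholesterol supply passed 2-fold against control in DBP+DiBP alone of the exposed libraries, with 3 of 8 higher and 1 lower, where 9.57% of all features were higher and 6.42% lower. With a pseudocount of 5, 1 of the 8 was higher and 0 lower, beside 4.37% and 1.68% of all features. Markers of gut, liver, pancreas and leukocytes were higher in the same library, and their part in these counts was not tested. NPC2, which moves cholesterol out of lysosomes and whose values are shared by a pair of identifiers, had 166 FPKM in DBP+DiBP and 42.004 in control. The sterol carrier STARD4 had 18.6 FPKM in DBP+DiBP and 7.31 in control, and the LDL receptor gene ldlra 3.85 in DBP+DiBP and 1.16 in control. The hormone-sensitive lipase gene lipea was lower, with 1.34 FPKM in DBP+DiBP and 3.75 in control, and was no longer past 2-fold after scaling by median ratios.

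Of 5 other redox partners CYB5A, a cytochrome b5 that aids the lyase step of Cyp17a1 in mammals, was higher in DBP+DiBP at 21.2 FPKM, against 5.27 in control. It had 6.67 FPKM in DBP and 5.85 in DiBP. H6PD, which supplies NADPH in the endoplasmic reticulum, had 4.54 FPKM in DBP, 2.37 in DiBP, 2.197 in DBP+DiBP and 2.69 in control, and cyb5b stayed between 1.70 and 3.94 FPKM. Of 11 other steroid enzymes 2 were higher in DBP+DiBP and 0 lower, and 0 passed 2-fold in DBP or DiBP, beside 9.57% of all features higher and 6.42% lower in DBP+DiBP. Among those averaging at least 5 FPKM 1 was higher. With a pseudocount of 0.1, 2 of the 11 were lower in DBP, beside 7.68% of all features. The ones higher in DBP+DiBP were HSD17B4, at 24.1 FPKM against 7.03 in control, and the steroid reductase copy SRD5A2 ENSDARG00000043587, at 9.14 against 1.31. HSD17B4 is a peroxisomal enzyme that also serves fatty acid oxidation. The SRD5A2 copy had 0.285 FPKM in DBP and 1.05 in DiBP. The estradiol and testosterone oxidizing hsd17b2 had 6.48 FPKM in DBP, 7.55 in DiBP, 2.37 in DBP+DiBP and 3.93 in control, and hsd17b8 had 9.45 FPKM in DBP, 9.55 in DiBP, 18.6 in DBP+DiBP and 18.3 in control. HSD17B3 reduces androstenedione to testosterone in mammals, a step that the 10 genes do not include. It lay between 0.724 and 0.973 FPKM in all libraries.

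Of 6 regulators and receptors 2 were lower in DBP, 0 passed 2-fold in DiBP, and 2 were higher in DBP+DiBP, where 4.5% of all features were lower in DBP and 9.57% higher in DBP+DiBP. With a pseudocount of 5, or a mean of at least 5 FPKM, 1 was lower in DBP and 1 higher in DBP+DiBP. At that pseudocount 1.35% of all features were lower in DBP and 4.37% higher in DBP+DiBP. With a pseudocount of 0.1, 3 were lower in DBP and 1 in DiBP, beside 7.68% and 8.40% of all features. CEBPB, a transcription factor that acts on the mammalian star promoter, had 14.1 FPKM in DBP, 131 in DiBP, 286 in DBP+DiBP and 136 in control. NR4A1, a nuclear receptor induced by luteinizing hormone in mammalian Leydig cells, had 1.54 FPKM in DBP, 4.87 in DiBP, 7.31 in DBP+DiBP and 4.78 in control. These were the lower ones in DBP, and whether they bear on the 10 genes was not tested. GATA6 had 5.97 FPKM in DBP+DiBP and 1.81 in control. NR0B1, a repressor of steroid synthesis, had 4.87 FPKM in DBP, 2.19 in DiBP, 4.12 in DBP+DiBP and 5.01 in control. Its ratios to control were all under 2-fold on the log2(FPKM + 1) scale, which understates the change of low genes, with -0.91 in DiBP. Both copies of NR5A1, the master regulator of steroidogenic genes, stayed between 0.3001 and 1.08 FPKM and averaged under 1.

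Of 6 markers of interrenal and chromaffin cells 1 averaged at least 1 FPKM. Interrenal cells, the fish counterpart of the adrenal cortex, also express star, cyp11a1, cyp11c1 and fdx1b. The 6 interrenal and chromaffin markers summed to 4.88 FPKM in DBP, 7.55 in DiBP, 6.20 in DBP+DiBP and 6.53 in control, with 0 of the 6 at 0 in any library. The corticotropin receptor gene mc2r made up most of this, with 2.82 FPKM in DBP, 5.18 in DiBP, 4.61 in DBP+DiBP and 3.41 in control. It lay above both cyp11a1 copies in DiBP, at 2.85 and 3.46 FPKM, and in DBP+DiBP, at 3.12 and 3.80. In DBP and control it lay below both copies. The rest of the list did not share this order. For mrap there were 0.291 FPKM in DBP, 0.315 in DiBP, 0.192 in DBP+DiBP and 1.39 in control, its highest library. DBH had 0.553 FPKM in DBP, 0.872 in DiBP, 0.294 in DBP+DiBP and 0.424 in control, and chga lay between 0.944 and 1.07. The interrenal hydroxylase cyp21a2 lay between 0.0731 and 0.206 FPKM and TH, which makes catecholamines, between 0.0624 and 0.163. The 7 ovary markers summed to 191 FPKM in DBP, 195 in DiBP, 139 in DBP+DiBP and 310 in control, nearly all of it from org. The oocyte factor GDF9 lay between 0.548 and 2.72 FPKM. The 9 Sertoli cell genes summed to 367 FPKM in DBP, 357 in DiBP, 598 in DBP+DiBP and 369 in control. In DBP+DiBP most of this sum came from gsdf, at 340 FPKM and a ratio to control of 2.61. Of the 7 Sertoli cell genes averaging at least 1 FPKM, gsdf alone was at least 2-fold higher there. In the same comparison 1 was lower, amh at -1.31, and the median ratio of the 7 was 0.08. The part of these cells in the levels of the 10 genes was not tested.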

How the data were processed

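Each library came as a single deposited file that gives every gene an expression level. The unit was read as FPKM from the values, since no header or label names it, and the authors made these values before depositing them. The labels' protocols name the RNeasy Mini Kit for extraction, 3 μg of input RNA, the NEBNext Ultra kit and paired-end Illumina reads. HISAT2, HTSeq 0.6.1 and GRCz10 appear in the submitters' processing notes; their roles, the strand setting and read numbers are not given in the sources used here. MSTRG names mark assembled loci.

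Identifiers at 0 in all libraries were dropped and those sharing all values merged, leaving 42683 features, of which 23405 averaged at least 1 FPKM. Ratios are differences of log2(FPKM + 1), as deposited and with no further scaling, called at 2-fold; with 1 library per group no test was run. Genes were named from a table of Ensembl symbols that lacks some copy letters, and every copy was then counted. Named genes were all 10 members, insl3, lhcgr, up to 4 per list by largest ratio to control, and the 3 nearest in profile to star, cyp17a1 and cyp11c1; other genes serve as examples and were chosen after their values were seen. Members and lists were chosen with earlier results of these data known. Python 3.11.15, pandas 2.3.3 and numpy 2.4.6 were used. No coordinates are given because the gene table's build differs from the one named.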

Additional observations from a re-analysis of the deposited data

Results flagged for a closer look

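Members whose ratios to control had opposite signs in 2 exposed libraries and differed by at least 2-fold were marked; these differences were not tested, since each group was 1 library. For star the ratio was -1.02 in DiBP and 0.26 in DBP, a difference of -1.28, and -0.87 in DBP+DiBP, a difference from DBP of -1.14. For the cyp11a1 copy ENSDARG00000002347 the difference from DBP was -1.54 in DiBP and -1.44 in DBP+DiBP, and for the copy ENSDARG00000092696 -1.22 and -1.12. For cyp11c1 it was -1.47 in DiBP and -1.16 in DBP+DiBP. For cyp17a1 the ratio was -1.49 in DBP+DiBP and 0.22 in DBP, a difference of -1.70.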

How the results depend on the processing

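With a pseudocount of 5 the members at least 2-fold higher were 0 in DBP and 0 in DiBP against control, those lower 1 in DiBP against control, 2 in DiBP against DBP and 0 in DBP+DiBP against DiBP; the departure of cyp17a1 from additivity became -0.88. With library totals made equal 1 member was lower in DiBP than in control, and with median ratios 1 was higher in DBP than in control, with hsd3b1 at a ratio of 0.996, 3 were lower in DBP+DiBP than in DBP and 0 lower than in DiBP. A pseudocount of 0.1 kept these counts within 1.5 times. A mean of at least 5 FPKM, no filter, and leaving out DBP+DiBP do not alter the ratio of any member. Those settings therefore could not move these counts, since the only member under 5 FPKM, fdxr, was not called. Of 240 member ratios under other settings 223 kept their side of 2-fold, 15 lost the call, 2 gained it and 0 called ones changed sign. Most of the 240 had no call to lose, so the 15 are a larger part of the called ones. A pseudocount of 5 accounted for 9 of these losses and median ratios for 5. The count of features higher in DBP than in control ran from 415 to 2732 and lower from 316 to 1798, in DiBP from 276 to 2009 and 218 to 1965, and in DBP+DiBP from 912 to 3168 and 393 to 2852. Of 144 list counts 132 stayed within 1.5 times, most of them counts that were 0 in the main setting. Rankings of libraries, list counts, ratios to inha and the setting without DBP+DiBP were added after seeing the data. No paired analysis was possible because each group was 1 library, and all share the number 2 in their titles, whose meaning is not stated. Read numbers were not given, so no counting error is attached to any value.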
